A study of Danio rerio with 28 samples.

Results

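The RNA helicases described here are the products of the DDX and DHX genes, and 43 of the 33737 gene identifiers in the count files belong to them. They were taken as every Ensembl identifier whose symbol begins with ddx or dhx followed by a digit, in any case, without ddx4. A DDX symbol was held by 28 of them and a DHX symbol by 15. Symbols are printed as the reference table gives them, and 3 symbols (DDX19A, DDX39A and DHX32) were each held by a pair of identifiers, which are told apart here by the last digits of the identifier. A helicase gene among the identifiers without a symbol in that table is not included.

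DEAD-box (DDX) and DEAH-box (DHX) proteins use ATP to unwind or remodel RNA and to strip proteins from it. Between them they act at nearly every step in the life of an RNA, from transcription and splicing through nuclear export and ribosome assembly to translation, storage and decay. The early embryo lives on mRNA that the mother deposited in the egg until its own genome is switched on at the maternal-to-zygotic transition, when maternal mRNA is cleared. The roles named below are those known from yeast or human cells unless another species is named.

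The study followed whole zebrafish embryos of the AB strain from fertilisation to gastrulation, and asked how gene expression differs when ybx1 or pabpc1a is knocked down and how long mRNAs last. Ybx1 is a Y-box protein that binds mRNA, and Pabpc1a is a cytoplasmic poly(A)-binding protein. Poly(A)-selected RNA was sequenced from wild type (WT) at 0, 2, 3, 4 and 6 hours post fertilisation (hpf), from embryos carrying a morpholino (MO, an antisense oligomer) against ybx1 at 3, 4 and 6 hpf, and from embryos carrying one against pabpc1a at 4 and 6 hpf. RNA depleted of rRNA was sequenced from embryos given 0.2 ng of alpha-amanitin, an inhibitor of RNA polymerase II, at the one-cell stage and collected at 2, 4 and 6 hpf, and from WT at 4 hpf. Each of these 14 groups holds 2 libraries. Libraries whose title says only MO are treated as ybx1 MO, which the text on the series supports, and no control morpholino is named. Only the amanitin series is described as biological replicates, of pooled embryos, so elsewhere p-values measure the spread between samples, which may be technical. In whole embryos, fewer cells of a type and less RNA per cell cannot be told apart. Poly(A) selection also responds to the length of the tail, which was not measured.

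The poly(A) libraries held 48204100 to 100000375 counts and the rRNA-depleted ones 39882963 to 66381933. The helicase genes together took 0.386% to 0.768% and 0.633% to 0.808% of them. These shares depend on the other genes of a library. The gene with the most counts took 22.2% to 46.1% in poly(A) and 0.613% to 2.00% in rRNA-depleted libraries. Levels are given as CPM, counts scaled to the library's total with its TMM factor (trimmed mean of M values), which compares a gene between libraries of 1 kit but not between genes of different length. The 2 kits were scaled and tested apart. All 43 genes passed the filter on low counts in both, among 22377 and 21525 genes tested, and 37 held at least 100 counts in every library. DHX58 and DHX32_79029 had at most 37 and 51 counts in any library. The shares over all genes given below were not matched to the helicase genes in count level or spread. A gene was called changed when edgeR's quasi-likelihood F test gave it a p under 0.05 after adjustment by Benjamini-Hochberg over all genes tested. Log2 fold changes are given with an approximate standard error (SE). It was worked back from the test, as the absolute log2 fold change divided by the square root of F. The poly(A) WT pair at 4 hpf stood apart, with 5203 of all genes at least 2-fold different between its libraries. Its replicate 1 held 1181 CPM of 6 zygotic marker mRNAs and 277 CPM of 6 maternal ones, against 597 and 471 CPM in replicate 2.

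In WT embryos the helicase genes followed different courses, some highest in the egg and others at gastrulation. The WT mean was highest at 6 hpf for 20 of the 43 genes, at 0 hpf for 9, at 2 hpf for 5, at 3 hpf for 5 and at 4 hpf for 4. These peaks were read from group means without a test, and include the scarcely counted DHX32_79029 and DHX58. How the peaks of all genes spread over the stages was not worked out. From 0 to 2 hpf, before the bulk of zygotic transcription, 27 of 43 passed the test, 11 higher and 16 lower, where 34.3% of all genes tested did, 17.6% higher and 16.8% lower. From 2 to 3 hpf only DDX49 passed, lower, against 4.59% of all genes, 3.28% higher and 1.3% lower. That count depended on the fit. With only the groups compared it was 15, 8 higher and 7 lower, with 4562 of all genes called. It was 4 in a fit without the WT pair of 4 hpf. Counts over all genes were not kept for that fit or for fits without 1 library, here and below. From 3 to 4 hpf 9 rose and 9 fell, against 27.5% of all genes called, 17.1% higher and 10.5% lower. From 4 to 6 hpf 24 rose and 12 fell, against 59.7% of all genes called, 27.9% higher and 31.8% lower. The median log2 fold change of that step was 0.52 over the 43 genes and -0.06 over all genes. Over the whole course from 0 to 6 hpf 22 rose and 15 fell, against 72.9% of all genes called, 38.6% higher and 34.4% lower. With median-of-ratios size factors the median over all genes was 0.22 instead of -0.06 between 4 and 6 hpf, and 0.38 instead of 0.14 between 0 and 6 hpf. The split of the helicase genes was then 25 against 10 and 23 against 15.

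**Figure D1:**
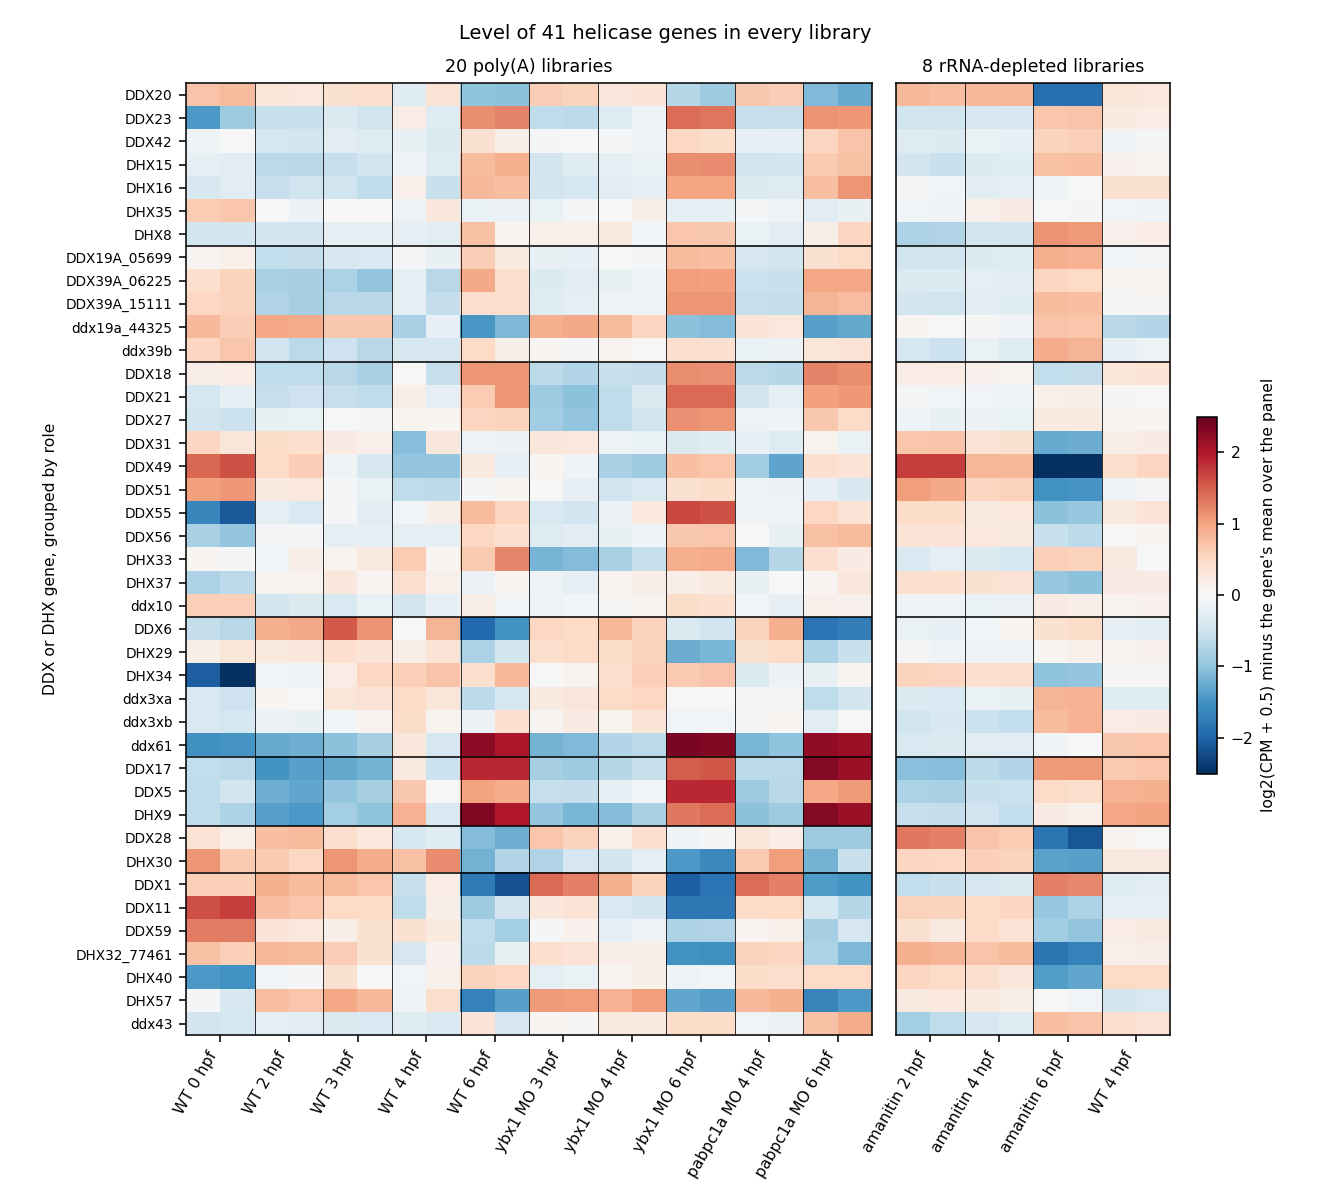
Each column is a library and each line a helicase gene, with lines parting the roles (from the top: splicing, mRNA export, ribosome biogenesis, translation and decay, transcription and microRNA processing, mitochondrial, other). Colour gives log2(CPM + 0.5) minus the gene's mean over the libraries of the same kit, and the darkest shades also hold larger deviations. DHX58 and DHX32_79029 are left out for their low counts. A reader should see the change of pattern between 4 and 6 hpf in all poly(A) series, with DDX5, DDX17, DHX9 and ddx61 among the genes that turn red.

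All 3 genes of transcription and microRNA processing rose from 3 to 4 hpf and again from 4 to 6 hpf, by different amounts. Of all genes 17.1% rose at the first of these steps and 27.9% at the second. DDX5 and DDX17 are close paralogs that act as transcription co-regulators, in splicing and with Drosha in microRNA processing, and DHX9 (RNA helicase A) is a transcription coactivator that unwinds RNA duplexes and RNA-DNA hybrids. DDX5 (ENSDARG00000038068) was at 528 and 599 CPM at 0 hpf, 352 and 337 at 2 hpf, 422 and 464 at 3 hpf, 1312 and 829 at 4 hpf, and 1652 and 1574 at 6 hpf. It was thus lowest at 2 hpf, and the 4 and 6 hpf libraries stood above those of every earlier stage. It fell by 0.71 on the log2 scale from 0 to 2 hpf (SE 0.151, adjusted p = 0.0013) and rose by 1.27 from 3 to 4 hpf (SE 0.153, adjusted p = 6.75e-05) and by 0.59 from 4 to 6 hpf (SE 0.151, adjusted p = 0.00291). The last value was 0.95 without replicate 1 and 0.29 without replicate 2 of 4 hpf.

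DDX17 (ENSDARG00000010873) went from 15.9 and 17.5 CPM at 2 hpf to 53.5 and 31.4 at 4 hpf and 171 in both libraries at 6 hpf. Its log2 fold change was 1.14 (SE 0.168) from 3 to 4 hpf and 2.01 (SE 0.171) from 4 to 6 hpf. DHX9 (ENSDARG00000079725) went from 9.83 and 9.35 CPM at 2 hpf to 48.0 and 19.9 at 4 hpf and to 132 and 106 at 6 hpf. Its values did not overlap between any of these stages, and the rise was 1.32 (SE 0.273) from 3 to 4 hpf and 1.82 (SE 0.275) from 4 to 6 hpf. Without replicate 1 of WT at 4 hpf, the library with the higher zygotic sum, the DHX9 rise was 0.51 to 4 hpf and 2.58 from 4 to 6 hpf, and the DDX17 rise to 4 hpf was 0.66. Fitting only the 4 libraries of 3 and 4 hpf called 0 of the 43 genes (12 at an unadjusted p under 0.05), and 0 of all genes.

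Among translation and decay factors the DDX6 pair went opposite ways. DDX6 is a decapping activator and translational repressor of P-bodies, and ddx61 is the zebrafish gene annotated as its close relative. Levels of such close relatives depend on how the authors' counting split shared reads, which was not given in the sources used here. DDX6 (ENSDARG00000061338) rose from 6.81 and 6.32 CPM at 0 hpf to 19.9 and 21.0 at 2 hpf, stood at 31.5 and 23.5 at 3 hpf and 10.6 and 19.3 at 4 hpf, and was at 2.37 and 3.36 at 6 hpf. The log2 fold change was 1.64 (SE 0.25) from 0 to 2 hpf and -2.40 (SE 0.262, adjusted p = 7.39e-07) from 4 to 6 hpf. ddx61 (ENSDARG00000018425) was at 38.0 and 39.5 CPM at 0 hpf, 54.3 and 62.2 at 3 hpf, 135 and 82.9 at 4 hpf, and 526 and 455 at 6 hpf. Among helicase genes of at least 5 CPM at either end and with no overlap this was the largest rise over the course, with a log2 fold change of 3.66 (SE 0.175, adjusted p = 2.28e-11).

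DHX34, which takes part in nonsense-mediated decay, was at 2.15 and 1.10 CPM at 0 hpf, 10.1 and 9.90 at 2 hpf, and 14.2 and 18.9 at 6 hpf. Its rise by 2 hpf was the largest of that step at 2.59 (SE 0.252, adjusted p = 6.24e-07), and 3.19 without replicate 1 of WT at 0 hpf. The DDX3X pair are translation initiation factors for structured mRNAs. ddx3xa rose by 0.49 from 0 to 2 hpf, where ddx3xb was at 0.24 and did not pass, and fell by 0.94 from 4 to 6 hpf (SE 0.102, adjusted p = 6.97e-07), from 384 and 337 CPM to 174 and 201. ddx3xb was at 1176 and 909.9 CPM at 4 hpf and 774 and 1145 at 6 hpf, groups that overlapped, and did not pass (-0.12, SE 0.157, adjusted p = 0.526). Whether the pair differed from each other was not tested. DHX29, a factor for ribosome scanning, was at 49.8 and 56.9 CPM at 4 hpf and fell to 25.5 and 32.2 at 6 hpf.

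Most export helicases fell at the first step. DDX39A and ddx39b are UAP56-type helicases of the TREX export complex and the spliceosome, and DDX19A is the nuclear pore helicase known in yeast as Dbp5. From 0 to 2 hpf 4 of these 5 genes fell, with a median of -1.25 over the 5, and ddx19a_44325 did not pass, at 0.23. Of all genes 16.8% fell at that step, with a median of 0.03 over all. DDX39A_15111 went from 894 and 924 CPM to 370.4 and 349 (-1.34, SE 0.104, adjusted p = 6.86e-08), DDX39A_06225 from 459 and 506 to 196 and 192 (-1.31, SE 0.152) and ddx39b from 20.4 and 22.6 to 9.66 and 8.43 (-1.25, SE 0.154). From 4 to 6 hpf 4 of the 5 rose again and 1 fell, where 27.9% of all genes rose and 31.8% fell. The DDX39A genes then stood at 835 and 839, and at 666 and 460.3 CPM, and neither passed the test between 0 and 6 hpf (-0.12 and 0.22). The fifth, ddx19a_44325, fell at the later steps, from 15.4 CPM in both libraries at 3 hpf to 5.18 and 8.11 at 4 hpf (-1.21, SE 0.198, adjusted p = 0.000437) and 3.14 and 4.06 at 6 hpf. DDX19A_05699, at 291 to 682 CPM over the course, rose by 0.56 (SE 0.105) from 4 to 6 hpf, and by 0.34 without replicate 1 of 6 hpf. A fit of only the 4 libraries of 4 and 6 hpf called 21 of the 43 genes, and 9339 of all genes. DDX5, ddx39b, DDX19A_05699 and ddx19a_44325 were not called in that fit.

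Of the 7 splicing helicases 5 rose and 1 fell from 4 to 6 hpf, with a median of 0.68. Of all genes 27.9% rose and 31.8% fell. The median over all genes was -0.06, and 0.22 with median-of-ratios size factors. DDX23, the homolog of yeast Prp28 that helps activate the spliceosome, was at 53.7 and 78.4 CPM at 0 hpf, 167 and 116 at 4 hpf, and 326 and 343 at 6 hpf. DHX15, the Prp43 homolog that takes spliceosomes apart, was at 118 and 100.0 CPM at 4 hpf and 215 and 235 at 6 hpf. DHX16 (Prp2), DDX42 and DHX8 (Prp22) also rose. DDX20, or Gemin3, of the SMN complex that assembles snRNPs, was the one that fell, from 38.6 and 61.8 CPM to 23.7 and 23.3. DHX35 did not pass, at 39.6 and 52.8 against 38.2 and 38.7 CPM.

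Of the 11 ribosome biogenesis helicases 9 rose and 1 fell from 4 to 6 hpf, with a median of 0.63. Of all genes 27.9% rose and 31.8% fell. The median over all genes was -0.06, and 0.22 with median-of-ratios size factors. DDX18 (yeast Has1) rose from 139.6 and 94.6 CPM to 305 and 302, a log2 fold change of 1.37 (SE 0.132, adjusted p = 1.67e-07). DDX55 (yeast Spb4), which acts on the large subunit, began at 6.57 and 4.58 CPM at 0 hpf, rose by 1.61 (SE 0.188) by 2 hpf to 18.1 and 16.1, and reached 37.4 and 31.2 at 6 hpf. Other members of the group were high in the egg. DDX49 (yeast Dbp8) fell at each of the first 3 steps, from 79.6 and 88.0 CPM at 0 hpf to 41.1 and 44.4 at 2 hpf, 27.1 and 21.8 at 3 hpf and 14.5 in both libraries at 4 hpf, and rose to 34.5 and 25.0 at 6 hpf. Its fall from 2 to 3 hpf (-0.80, adjusted p = 0.0106) did not pass without either library of 2 hpf (-0.86 and -0.75) or without replicate 2 of 3 hpf (-0.66). Its fall from 3 to 4 hpf was -0.76 and did not pass without replicate 1 of 3 hpf, at -0.60. ddx10 (yeast Dbp4) fell from its egg level, by 1.03 (SE 0.116) from 99.4 and 99.2 to 46.5 and 50.6 CPM. DHX37 (yeast Dhr1), which releases the U3 snoRNA, fell from 4 to 6 hpf, and DDX31 was the member that did not pass.

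The 2 mitochondrial helicases both fell from 4 to 6 hpf, where 27.9% of all genes rose and 31.8% fell. DHX30 went from 25.8 and 35.3 CPM to 6.45 and 9.02 (-1.99, SE 0.255, adjusted p = 4.38e-06) and DDX28 from 18.2 and 20.2 to 11.5 and 10.4. Both are known to act in assembly of the mitochondrial ribosome. Of the 8 genes of other roles DDX1, DDX11, DDX59 and DHX57 fell, and DHX40 and the scarcely counted DHX32_79029 rose. The DDX11 groups overlapped, at 13.8 and 24.3 CPM at 4 hpf and 11.4 and 15.5 at 6 hpf. DDX1, a subunit of the tRNA ligase complex, was at 18.1 and 18.3 CPM at 0 hpf, 7.94 and 13.6 at 4 hpf, and 3.14 and 2.23 at 6 hpf. Its fall from 4 to 6 hpf was -1.99 (SE 0.229, adjusted p = 1.34e-06), and that from 3 to 4 hpf (-0.91) did not pass without replicate 1 of WT at 4 hpf, at -0.61. DHX57 fell by 1.76 (SE 0.183) from 4 to 6 hpf, from 27.2 and 40.0 CPM to 8.77 and 11.2. DDX11, a DNA helicase of sister-chromatid cohesion, lost most of its egg level by 6 hpf, from 67.0 and 72.8 CPM to 11.4 and 15.5 (-2.38, SE 0.212). DHX40 rose by 1.50 (SE 0.148) from 0 to 2 hpf, from 6.69 and 6.32 CPM to 18.3 and 18.7. DHX58, the RNA sensor LGP2 of antiviral defence, was at or under 0.442 CPM in every library of both kits.

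**Figure D2:**
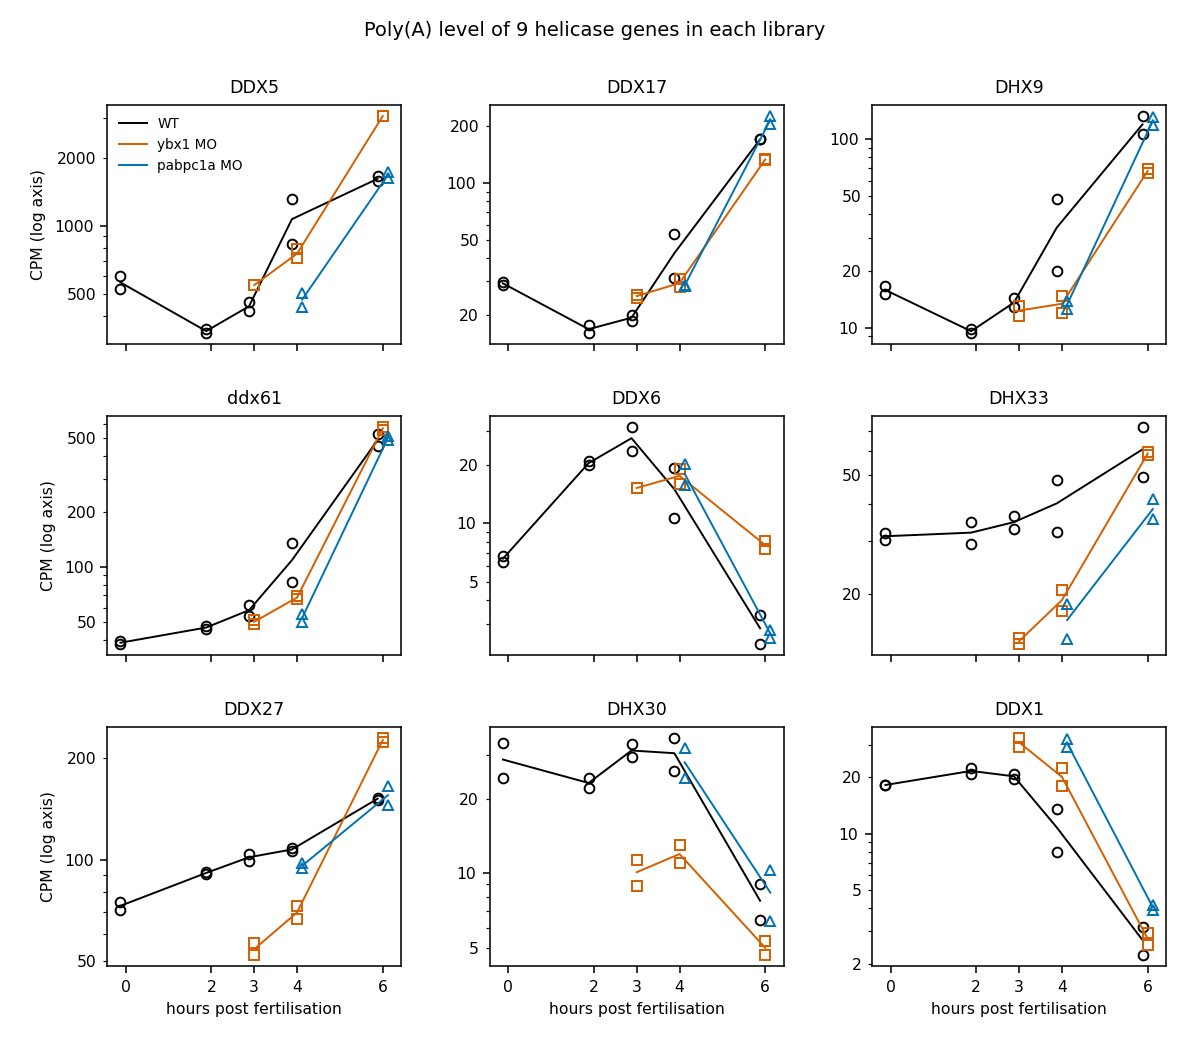
Poly(A) level in CPM (log axes that differ between panels and do not start at 0) against age in hours post fertilisation for 9 helicase genes, with 1 symbol a library and lines through the group means. The panels of DDX5, DDX17, DHX9 and ddx61 show the climb at 4 and 6 hpf, and those of DHX33, DDX27 and DHX30 show ybx1 MO libraries below WT at 3 and 4 hpf.

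The rRNA-depleted libraries asked which helicase mRNAs need new transcription. At 4 hpf 38 of the 43 genes differed between WT and amanitin embryos, 21 higher and 17 lower in WT, where 68.9% of all genes tested were called, 36.2% higher and 32.7% lower. The median was 0.09 over the 43 genes and 0.02 over all genes. The 6 zygotic markers were all higher in WT, at 979.9 and 976 CPM in sum against 12.9 and 13.2 with amanitin. A call together with a 2-fold difference, the threshold used here for dependence on transcription, was reached by DDX5, DDX17 and DHX9 among the 21 higher genes, and the other 18 differed less. This threshold rests on shares of the libraries at 4 hpf alone. Of all genes tested 21.7% passed the same threshold. DDX5 was at 1700.4 and 1717 CPM in WT and 628 and 635 with amanitin (1.44, SE 0.0276, adjusted p = 1.05e-20). DDX17 was at 76.1 and 78.6 against 30.6 and 28.7 (1.38, SE 0.0498), and DHX9 at 49.1 and 50.4 against 17.6 and 16.2 (1.56, SE 0.0683). The same 3 genes had risen in poly(A) WT libraries between 3 and 4 hpf. ddx61 lay just under the threshold, at 162 and 163 against 84.3 and 84.6 CPM (0.94, SE 0.0376). Over the alternative fits its value ran from 0.901 to 1.004, and the upper end reached the threshold.

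Of the 17 genes lower in WT than with amanitin at 4 hpf, 4 are named here. DDX11 was at 31.1 and 31.9 CPM in WT and 52.3 and 53.5 with amanitin (-0.75, SE 0.0597, adjusted p = 3.67e-10). ddx19a_44325 was at 18.5 and 18.1 against 30.7 and 28.6 CPM (-0.70), DDX28 at 42.7 and 41.4 against 68.2 and 64.7 (-0.66), and DHX57 at 63.8 and 67.5 against 105 and 99.6 (-0.64). The groups of these genes did not overlap, which outside the paralog sets was a condition for naming them. All 6 maternal markers were lower in WT as well, with sums of 941 and 985 CPM against 1866 and 1857. The part of the maternal and zygotic markers in the helicase values was not tested.

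In embryos given amanitin the helicase mRNAs changed their share of the pool between stages. From 2 to 4 hpf 16 rose and 10 fell, against 32.3% of all genes called, 15.6% higher and 16.7% lower. From 4 to 6 hpf 24 rose and 17 fell, against 67.7% of all genes called, 33.1% higher and 34.6% lower, with a median of 0.23 over the 43 genes and -0.01 over all genes. From 2 to 6 hpf the counts were again 24 and 17, against 70% of all genes called, 34.9% higher and 35.1% lower. CPM is a share of the RNA in the library, so these values give no absolute amounts. The zygotic markers summed to 4.39 and 4.63 CPM at 2 hpf, 12.9 and 13.2 at 4 hpf and 4.29 and 3.17 at 6 hpf, with 5 of 6 called higher at the first step and all 6 lower at the second. The maternal markers summed to 2505 and 2490.3, 1866 and 1857, and 1082 and 1054 CPM, with 4 of 6 lower at each step. The part of either in the helicase values was not tested. Without replicate 2 of amanitin at 2 hpf the count of the first step was 17.

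The counts by role are given beside the shares of 33.1% higher and 34.6% lower over all genes, and the roles were not tested against each other. From 4 to 6 hpf with amanitin all 5 export helicases rose (median 1.05), as did 5 of 7 splicing, 5 of 6 translation and decay, and all 3 transcription helicases. Of the 11 ribosome biogenesis helicases 7 fell and 4 rose (median -0.87), and both mitochondrial ones fell (median -2.32). DDX49 went from 52.6 CPM in both libraries at 2 hpf to 28.0 and 27.9 at 4 hpf and 1.15 and 1.72 at 6 hpf. That was the largest loss among the named genes, with a log2 fold change of -4.27 (SE 0.116, adjusted p = 1.32e-18) from 4 to 6 hpf. DDX20 fell from 96.0 and 98.1 to 14.5 CPM in both libraries (-2.74, SE 0.0518), DDX28 from 68.2 and 64.7 to 11.2 and 8.95 (-2.72, SE 0.0742) and DHX32_77461 from 61.7 and 65.2 to 10.3 and 11.4 (-2.55, SE 0.0643).

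On the rising side DDX17 went from 30.6 and 28.7 to 101 CPM in both libraries (1.77, SE 0.05), DDX1 from 46.1 and 48.1 to 145 and 139.8 (1.60, SE 0.046) and DHX8 from 219.9 and 220.3 to 662 and 638 (1.56, SE 0.0367). ddx3xb, which did not pass in WT between these stages, went from 427 and 406 to 1079 and 1137 CPM (1.41, SE 0.0367). These groups did not overlap either, again a condition for naming genes outside the paralog sets. DDX17, DDX5 and DHX9 were called higher from 4 to 6 hpf both in WT and with amanitin. With amanitin DDX5 went from 628 and 635 to 1290 and 1263 CPM, and DHX9 from 17.6 and 16.2 to 28.7 and 27.3.

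**Figure D3:**
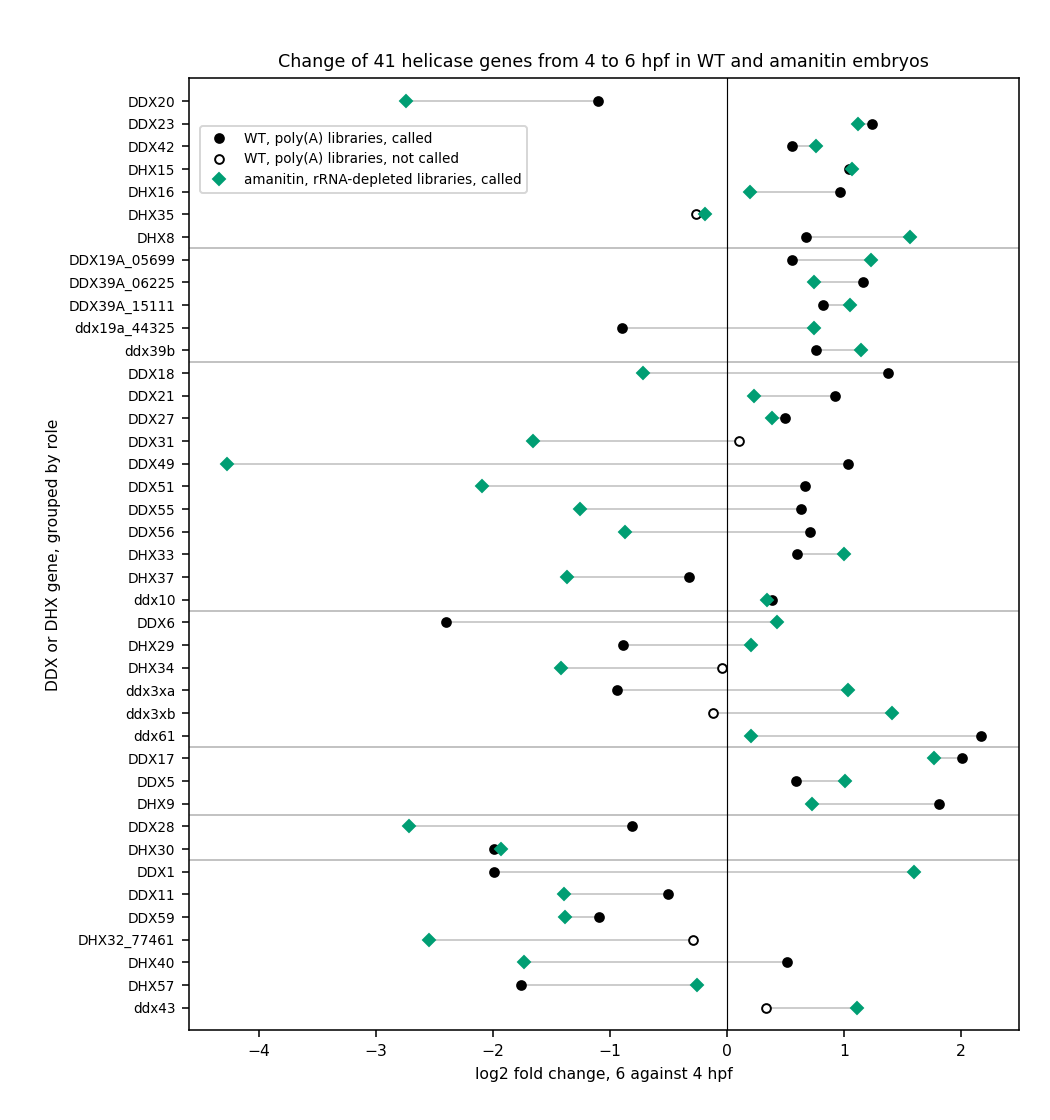
Log2 fold change from 4 to 6 hpf of each helicase gene in WT poly(A) libraries (circles) and in amanitin rRNA-depleted libraries (diamonds), in the role order of the heatmap. Filled symbols passed the test and open ones did not. A grey line joins the values of a gene, and the long lines of DDX49, DDX51, DDX18, DDX1 and DDX6 cross 0.

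Setting the change from 4 to 6 hpf in WT poly(A) libraries beside that in amanitin rRNA-depleted libraries, 17 of the 43 genes rose in both and 7 fell in both, against 9.8% and 15.7% of the genes tested in both kits. A further 6 rose in WT and fell with amanitin: DDX18, DDX49, DDX51, DDX55, DDX56 and DHX40, the first 5 of them ribosome biogenesis helicases, against 8.59% of all genes. The reverse was found for 5 genes: DDX1, DDX6, DHX29, ddx3xa and ddx19a_44325, against 12.4% of all genes. DDX51, for example, went from 28.9 and 28.4 CPM to 44.1 and 46.9 in WT but from 43.4 and 44.8 to 10.2 and 10.5 with amanitin. DDX1 fell from 7.94 and 13.6 to 3.14 and 2.23 CPM in WT and rose to 145 and 139.8 with amanitin. DDX6 in amanitin embryos was at 88.5 and 86.6 CPM at 2 hpf, 94.8 and 103 at 4 hpf and 130.1 and 136 at 6 hpf, while its poly(A) level fell after 3 hpf. The series differ in treatment and in kit at once, and the part of each cannot be told apart. WT at 4 hpf was sequenced with both kits, which were scaled apart, and DDX6 was there at 10.6 and 19.3 CPM in poly(A) and at 86.6 and 82.2 in rRNA-depleted libraries. DHX33 was higher in poly(A), at 48.0 and 32.2 against 14.8 and 12.6 CPM.

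The knockdown series asked which helicase mRNAs depend on Ybx1 or Pabpc1a. A morpholino can leave its target mRNA in place, so these libraries do not check the knockdown. YBX1 did not pass in ybx1 MO libraries at 3, 4 or 6 hpf (0.43, -0.44 and 0.24). pabpc1a was lower in pabpc1a MO libraries at 4 hpf (-0.58, adjusted p = 0.00737) and did not pass at 6 hpf (-0.20). YBX1, not the target there, was lower by as much at 4 hpf (-0.58, adjusted p = 0.0194) and did not pass at 6 hpf (0.44). In WT both YBX1 and pabpc1a rose from 3 to 4 hpf (1.13 and 0.44). All knockdown comparisons with WT at 1 stage share the WT libraries. Over the 5 comparisons 35 of the 43 genes were called at least once, as were 63.6% of all genes tested, and 8 never: ddx3xb, DHX16, DDX56, DDX31, DHX8, DHX35, DHX32_79029 and DHX58.

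At 3 hpf 7 of 43 helicase genes differed between ybx1 MO and WT, 3 higher and 4 lower, near the 14.8% of all genes called, 4.56% higher and 10.2% lower. DHX30 was at 8.87 and 11.3 CPM in ybx1 MO and 33.1 and 29.5 in WT (-1.63, SE 0.249, adjusted p = 0.000445). DHX33, which acts in rRNA synthesis and in translation initiation, was at 13.6 and 14.2 against 33.0 and 36.4 CPM (-1.32, SE 0.203, adjusted p = 0.000481). DDX27 (yeast Drs1), which processes the large-subunit rRNA, was at 56.4 and 52.1 against 104 and 99.2 CPM (-0.90, SE 0.0948, adjusted p = 1.4e-05). The ybx1 MO libraries were the lower ones in each case, and no overlap was a condition for naming these genes. Over the alternative fits the values ran from -1.82 to -1.47 for DHX30 and from -1.39 to -1.25 for DHX33. For DDX27 they ran from -0.96 to -0.84.

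DDX6 was lower as well, at 15.2 CPM in both ybx1 MO libraries against 31.5 and 23.5 (-0.85, adjusted p = 0.026), but not without replicate 1 of WT, at -0.63, or without either ybx1 MO library. The 3 higher genes were the UAP56-type export helicases ddx39b (0.65), DDX39A_06225 (0.58) and DDX39A_15111 (0.42). ddx39b was at 14.4 and 13.6 against 9.51 and 8.33 CPM. None of the 3 calls held without either ybx1 MO library or without replicate 2 of WT. That of DDX39A_15111 also ended without replicate 1 of WT. Over the alternative fits the values ran from 0.56 to 0.75 for ddx39b and from 0.48 to 0.68 for DDX39A_06225. For DDX39A_15111 they ran from 0.39 to 0.48. Median-of-ratios scaling called 6 higher and 4 lower. A fit without the poly(A) WT pair of 4 hpf called 7 higher and 4 lower. The 6 zygotic markers summed to 6.65 and 5.76 CPM in ybx1 MO against 96.2 and 187 in WT, with 5 of 6 lower, and 2 of 6 maternal markers were higher. The part of a difference in stage in these results was not tested.

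At 4 hpf 16 of 43 genes differed between ybx1 MO and WT, 7 higher and 9 lower, against 32.2% of all genes called, 12.8% higher and 19.4% lower. DHX30 was again lower, at 11.0 and 12.9 CPM against 25.8 and 35.3 (-1.35, SE 0.247), and so was DHX33, at 17.5 and 20.6 against 48.0 and 32.2 (-1.07, SE 0.202). All 3 transcription helicases were lower. DHX9 was at 12.02 and 14.8 CPM against 48.0 and 19.9 (-1.34, SE 0.273, adjusted p = 0.0021), DDX5 at 719 and 791 against 1312 and 829 (-0.50) and DDX17 at 28.0 and 30.9 against 53.5 and 31.4 (-0.53). With replicate 1 of WT left out the values were -0.57, -0.13 and -0.09, of which only that of DHX9 passed, and without its replicate 2 those of DDX5 and DDX17 were -0.79 and -0.86. The DDX5 call also ended without replicate 1 of ybx1 MO, and that of DDX17 without either ybx1 MO library. ddx61 likewise moved from -0.67 to -0.28 and no longer passed.

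Higher in ybx1 MO at 4 hpf were ddx19a_44325, at 16.7 and 13.9 CPM against 5.18 and 8.11 (1.20, SE 0.198, adjusted p = 0.000363), DHX57, at 54.3 and 60.6 against 27.2 and 40.0 (0.77, SE 0.176), and DDX28, at 27.3 and 33.4 against 18.2 and 20.2 (0.66, SE 0.138). DDX1 was at 22.3 and 17.9 against 7.94 and 13.6 CPM (0.90, adjusted p = 0.00483), and did not pass without replicate 1 of WT, at 0.56, or of ybx1 MO, at 0.73. None of the 7 splicing helicases passed at 3 or at 4 hpf, where 14.8% and 32.2% of all genes were called. The maternal sum was 708 and 674 CPM in ybx1 MO against 277 and 471 in WT, with 3 of 6 markers higher, and the zygotic sum 312 and 392 against 1181 and 597, with 2 of 6 lower. Their part in the result was not tested. Leaving out replicate 1 of ybx1 MO left 8 calls. Fitted on their own, these 4 libraries gave DHX30 as the single call.

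By 6 hpf the balance in ybx1 MO lay on the higher side, with 14 genes higher and 5 lower, against 27.5% of all genes called. The higher calls took 11.9% of all genes and the lower ones 15.6%, and the median was 0.21 over the 43 genes and -0.06 over all. DDX5 was at 3043 and 3051 CPM against 1652 and 1574 in WT (0.92, SE 0.152, adjusted p = 0.000348). DDX6 was at 8.09 and 7.32 against 2.37 and 3.36 (1.44, SE 0.259), DDX28 at 23.2 and 24.0 against 11.5 and 10.4 (1.11, SE 0.142) and DDX55 at 68.5 and 65.3 against 37.4 and 31.2 (0.96, SE 0.181). Of the 11 ribosome biogenesis helicases 6 were higher and none lower, with a median of 0.38. DDX39A_15111 (0.67, SE 0.103) and ddx3xa (0.54, SE 0.102) were higher too.

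Lower in ybx1 MO at 6 hpf were DDX11, at 5.94 and 5.89 CPM against 11.4 and 15.5 (-1.18, SE 0.21, adjusted p = 0.000614), DHX32_77461, at 7.65 and 7.55 against 14.3 and 19.95 (-1.17, SE 0.19), and DHX40, at 17.5 and 18.2 against 28.5 and 27.7 (-0.65, SE 0.144). DHX9 was at 65.9 and 69.3 against 132 and 106 CPM (-0.82, adjusted p = 0.0337), a call that ended without any 1 of the 4 libraries, at -0.65 to -0.98. DDX17 did not pass (-0.36, adjusted p = 0.123), so within this trio DDX5 was higher, DHX9 lower and DDX17 not called. Without either ybx1 MO library the counts were 8 higher and 4 lower. The zygotic sum was 5821 CPM in both ybx1 MO libraries and 3923 and 3272 in WT, none of the 6 zygotic markers passed, 1 maternal marker was higher and 1 lower, and their part in the result was not tested.

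DDX27 was the one member called in all 3 ybx1 MO comparisons and was singled out after its values were seen. It was at 56.4 and 52.1 CPM at 3 hpf, 66.6 and 72.8 at 4 hpf and 229 and 222 at 6 hpf in ybx1 MO, and at 104 and 99.2, 108 and 106, and 151 and 152 in WT. The groups did not overlap at any stage, and ybx1 MO was below WT at 3 and 4 hpf and above it at 6 hpf (-0.90, -0.62 and 0.58). The change of the knockdown effect from 4 to 6 hpf, tested as an interaction, was 1.20 (SE 0.133, adjusted p = 2.37e-05). That call held under all 14 alternatives tried.

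**Figure D4:**
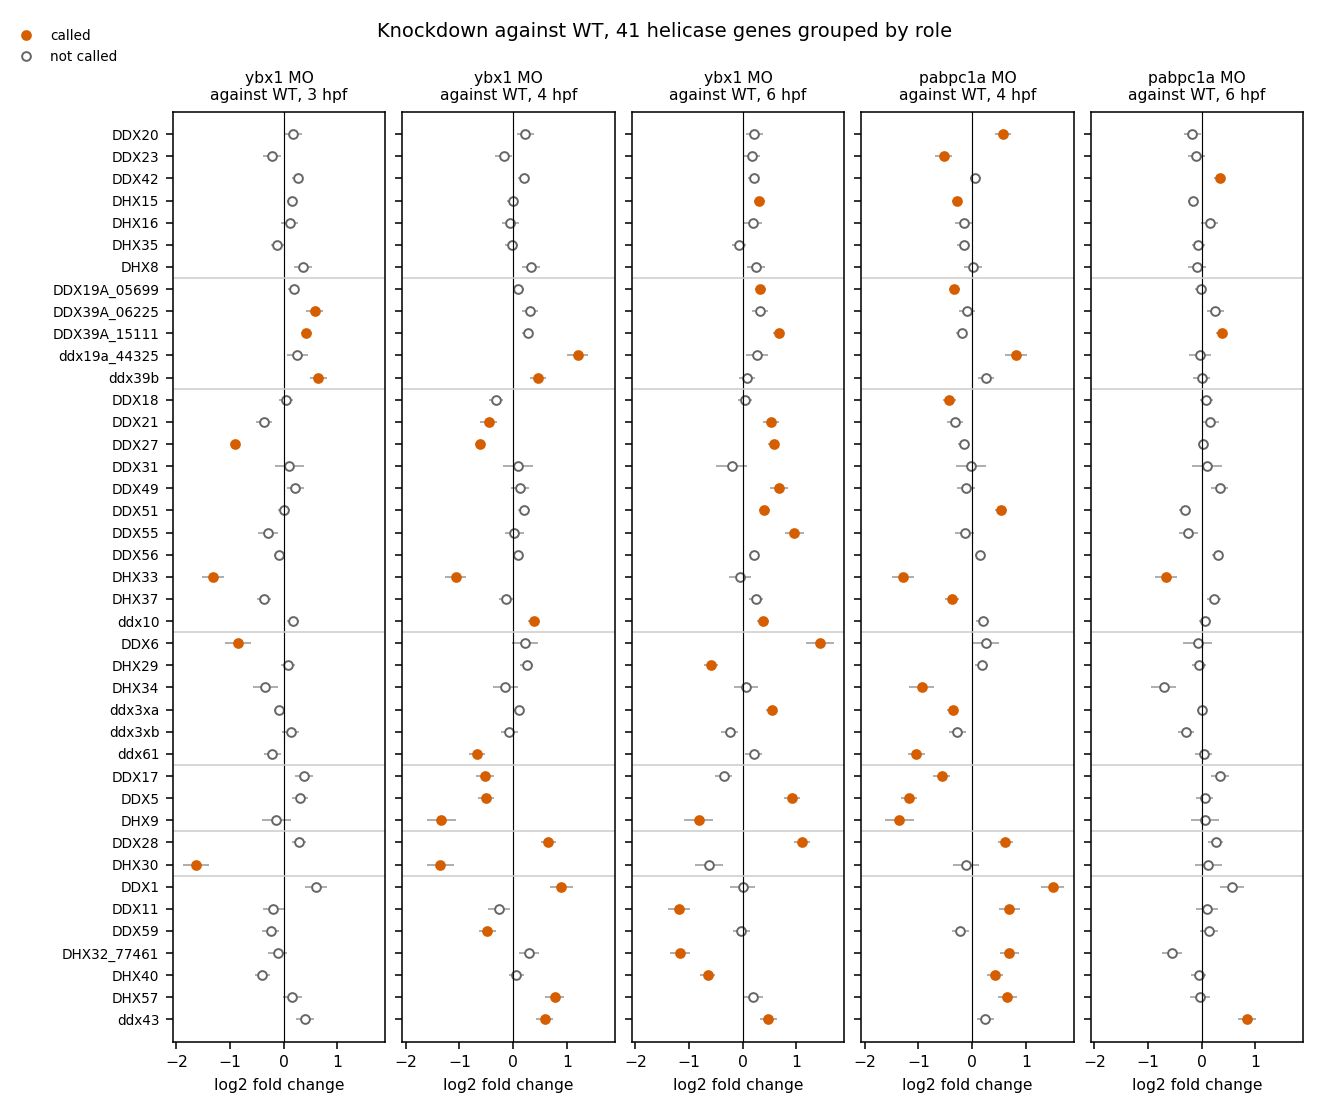
Log2 fold change of each helicase gene in the knockdown against WT of the same stage, with bars for the standard error, in the role order of the heatmap. Filled symbols passed the test and open ones did not. DHX33 lies to the left in 4 of the 5 panels, and in pabpc1a MO at 6 hpf few symbols are filled.

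With pabpc1a knocked down 21 of 43 genes differed from WT at 4 hpf, 9 higher and 12 lower, against 34.3% of all genes called, 13.5% higher and 20.8% lower. DDX5 was at 439.8 and 508 CPM against 1312 and 829 (-1.18, SE 0.153, adjusted p = 5.51e-05), close to its WT level at 3 hpf of 422 and 464. ddx61 was at 50.4 and 55.4 against 135 and 82.9 CPM (-1.04, SE 0.159), and DHX33 at 14.2 and 18.5 against 48.0 and 32.2 (-1.29, SE 0.203). The DDX5 and ddx61 values were -0.76 and -0.61 without replicate 1 of WT, and still passed. DHX9 was at 12.6 and 13.9 CPM (-1.36, SE 0.273), and at -0.54 without replicate 1 of WT. DDX17 was at 28.5 and 28.7 CPM (-0.57), and at -0.09 and not called without that library, nor called without either pabpc1a MO library. None of the 6 translation and decay helicases was higher and 3 were lower.

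DDX1 was the largest of the higher genes in pabpc1a MO at 4 hpf, at 32.0 and 29.1 CPM against 7.94 and 13.6 (1.50, SE 0.217, adjusted p = 0.000117), followed by ddx19a_44325, at 11.97 and 11.5 against 5.18 and 8.11 (0.82, SE 0.197). DHX32_77461 (0.70) and DDX11 (0.70) were higher as well, but not without replicate 1 of WT, at 0.49 and 0.39. DDX11 was at 1.16 without replicate 2 of WT and did not pass without either pabpc1a MO library. The count was 10 without replicate 1 of WT and 28 without its replicate 2, and 10 and 11 without replicate 1 and 2 of pabpc1a MO. Fitted on their own, these 4 libraries gave 0 of the 43 genes (12 at an unadjusted p under 0.05) and 0 of all genes. The maternal sum was 1047 and 885 CPM against 277 and 471 in WT, with 5 of 6 markers higher, and the zygotic sum 87.6 and 238 against 1181 and 597, with 4 of 6 lower. Their part in the result was not tested.

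At 6 hpf fewer helicase genes were called in pabpc1a MO, 3 higher and 1 lower of 43, near the share of 9.16% among all genes, 4.55% higher and 4.61% lower. ddx43, a helicase gene known for its expression in human germ cells and tumours, was at 152 and 176 CPM against 114 and 68.2 (0.85, SE 0.16, adjusted p = 0.00357). DDX42 (0.34) and DDX39A_15111 (0.37) were the other higher genes. DHX33 was the lower one, at 41.3 and 35.4 against 49.2 and 72.2 CPM (-0.66, SE 0.201, adjusted p = 0.0494). Only the ddx43 call held without each library, with a value of 1.27 without replicate 1 of WT and 0.51 without its replicate 2. DDX39A_15111 was lost without any 1 of the 4, at 0.34 to 0.41. DDX42 was lost without replicate 2 of WT (0.23) or of pabpc1a MO (0.25). DHX33 was lost without replicate 2 of WT (-0.37) or either pabpc1a MO library (-0.77 and -0.56). The count ran from 1 to 7 over the libraries left out and was 7 without the WT pair of 4 hpf in the fit. Median-of-ratios scaling called 3 higher and none lower, and neither DDX39A_15111 nor DHX33 was among them. The maternal sum was 61.5 and 64.3 CPM against 34.7 and 36.9 in WT, with 3 of 6 markers higher, and its part in the result was not tested.

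The knockdowns were also set against each other at the same stage. At 4 hpf 8 of 43 genes differed, 5 higher in ybx1 MO and 3 lower, against 16.8% of all genes called, 7.95% higher and 8.82% lower. Of the 6 maternal markers 3 were lower in ybx1 MO, with sums of 708 and 674 CPM against 1047 and 885, none of the zygotic markers passed, and their part in the result was not tested. DHX30 was at 11.0 and 12.9 CPM in ybx1 MO and 24.2 and 31.9 in pabpc1a MO (-1.23, SE 0.247, adjusted p = 0.00276), and DDX11 at 16.4 and 15.4 against 30.9 in both (-0.96, SE 0.202). DDX27 was at 66.6 and 72.8 against 94.3 and 97.4 CPM (-0.46), and at -0.39 and not called without replicate 1 of ybx1 MO. ddx3xa (0.47, SE 0.101) and DDX39A_15111 (0.46, SE 0.103) were higher in ybx1 MO. Without either ybx1 MO library, or without replicate 1 of pabpc1a MO, the count was 5, and it was 14, with 6 higher and 8 lower, without the WT pair of 4 hpf in the fit. DESeq2 called 5 higher and 6 lower, and 4912 of all genes.

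At 6 hpf 19 differed, 12 higher in ybx1 MO and 7 lower, against 27.8% of all genes called, 12.3% higher and 15.5% lower. Of the 6 maternal markers 4 were lower in ybx1 MO, with sums of 41.8 and 39.7 CPM against 61.5 and 64.3, none of the zygotic markers passed, and their part in the result was not tested. DDX6 was at 8.09 and 7.32 CPM against 2.56 and 2.82 (1.51, SE 0.259, adjusted p = 0.000405), DDX55 at 68.5 and 65.3 against 30.6 and 27.3 (1.21, SE 0.182) and DDX5 at 3043 and 3051 against 1619.5 and 1733 (0.86, SE 0.152). DDX11 was at 5.94 and 5.89 against 15.9 and 13.0 CPM (-1.29, SE 0.21) and DDX17 at 132 and 135 against 228 and 207 (-0.70, SE 0.166). The groups of these 5 genes did not overlap, which was a condition for naming those outside the paralog sets. The count was 10 without replicate 1 of ybx1 MO and 12 without its replicate 2.

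Whether a knockdown effect itself changed between stages was tested as an interaction. For ybx1 MO edgeR called 0 of 43 genes from 3 to 4 hpf (8 at an unadjusted p under 0.05, and 4 by DESeq2), against 2.05% of all genes, 0.769% upward and 1.28% downward, and 9 without replicate 2 of WT at 4 hpf. From 4 to 6 hpf 15 genes changed their effect, 9 upward and 6 downward, against 26.4% of all genes, 14.8% upward and 11.6% downward. The DDX5 effect went from -0.50 to 0.92, a change of 1.42 (SE 0.214, adjusted p = 0.000242), and that of DHX33 from -1.07 to -0.05, a change of 1.03 (SE 0.283, adjusted p = 0.0137), which did not pass without replicate 1 of WT at 6 hpf (0.77), of ybx1 MO at 4 hpf (0.90), or in a fit of only the groups compared (1.06). For pabpc1a MO 11 genes changed from 4 to 6 hpf, 6 upward and 5 downward, against 22.8% of all genes, 14.1% upward and 8.72% downward. All 3 transcription helicases changed upward, DDX5 by 1.23 (SE 0.214), DHX9 by 1.42 (SE 0.38) and DDX17 by 0.92 (SE 0.234). The effect on 5 of the 6 zygotic markers changed upward as well, and on 3 of 6 in ybx1 MO, and their part in these results was not tested. Without replicate 1 of WT at 4 hpf the DHX9 and DDX17 changes were 0.59 and 0.42 and did not pass, and that of DDX5 was 0.81. The DHX9 change also did not pass without replicate 2 of WT at 6 hpf or replicate 1 of pabpc1a MO at 4 hpf. The counts without replicate 1 and without replicate 2 of WT at 4 hpf were 9 and 23 for ybx1 MO, and 6 and 23 for pabpc1a MO. The ybx1 MO count was 8 without replicate 1 at 4 hpf or at 6 hpf of that knockdown. The pabpc1a MO count was 6 without its replicate 1 at 4 hpf and 7 without its replicate 2 at 6 hpf.

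**Figure D5:**
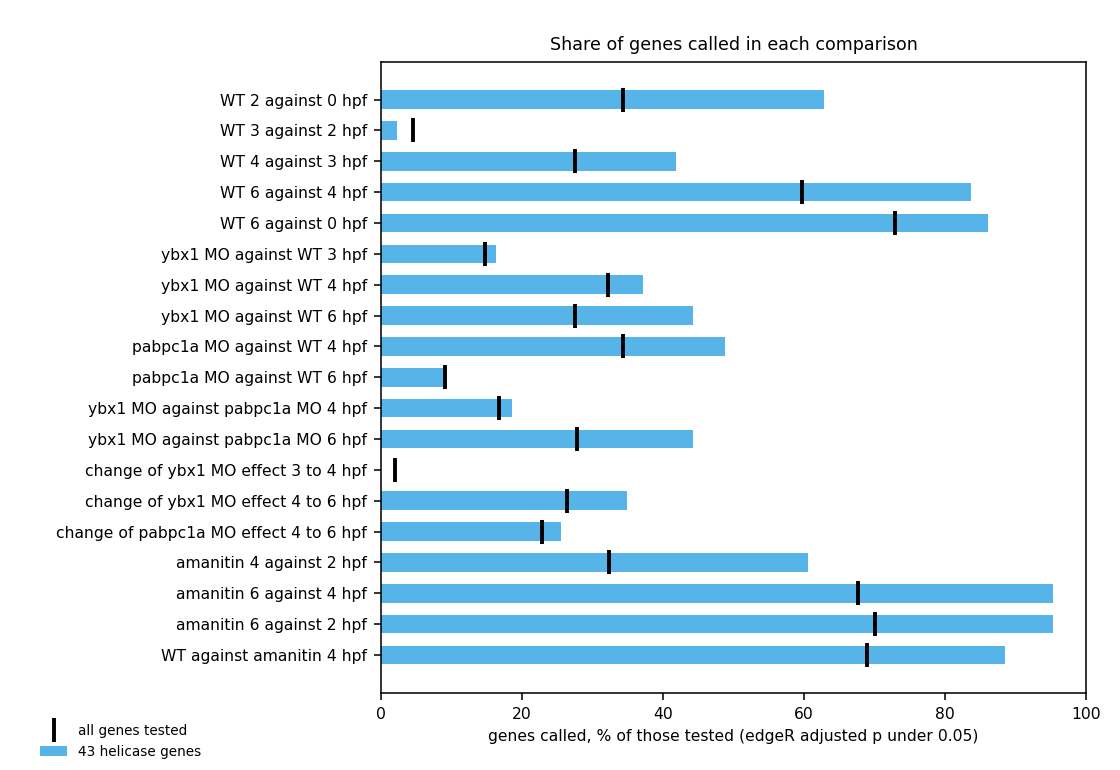
Bars give the share of the 43 helicase genes called in each of the 19 comparisons, in percent, and black marks the share of all genes tested in the same comparison. The bars pass the marks by most in the WT steps from 0 to 2 and 4 to 6 hpf and in the amanitin series, and lie near them in ybx1 MO at 3 hpf and pabpc1a MO at 6 hpf. The marks were not matched to the helicase genes in count level or spread. Between the poly(A) WT libraries of 4 hpf 23.3% of all genes and 3 of the 43 helicase genes were at least 2-fold apart. The part of this in the shares was not tested.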

How the data were processed

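Reads were aligned with TopHat2 2.1.1 and counted per gene with HTSeq 0.6.0, per the submitters' processing notes. Genome build, annotation and strand setting: not given in the sources used here. The deposited values are whole-number counts per Ensembl gene, 1 file a library, not normalized. Gene symbols came from a table of gene IDs, which named 21939 of 33737 identifiers. The lines that name no gene stayed out of library sizes and tests. The poly(A) libraries came from a stranded mRNA kit and the others from RNA depleted of rRNA, per the labels' protocols.

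Each kit was fitted once, over all its groups, in R 4.3.3 with edgeR 4.0.16 (TMM scaling, filterByExpr, robust quasi-likelihood F test, Benjamini-Hochberg adjustment over all genes tested). Groups of a kit thus share an estimate of spread, which had 10 residual degrees of freedom for poly(A) and 4 for rRNA-depleted libraries. Correlations between same-numbered libraries over the groups' residuals ran from -0.12 to 0.20 in poly(A) and from -0.02 to 0.02 in rRNA-depleted libraries, so numbers were not used as pairs. Alternatives were DESeq2 1.42.0, median-of-ratios scaling, no filter, a minimum of 1 CPM in 2 libraries, a replicate block, only the groups compared, leaving out each library, and a fit without the WT pair of 4 hpf, which was added after seeing the data. On simulated counts the scripts recovered 10.4% of 1.5-fold, 38.8% of 2-fold and 75.8% of 4-fold changes in ybx1 MO against WT at 6 hpf. For amanitin at 6 against 4 hpf they recovered 59.7%, 85.1% and 97%. Changes of these sizes can thus go uncalled. In the same simulations, with 200 genes changed in each, unchanged genes were called too. They were 10 of 21767 for ybx1 MO and 18 of 20752 for amanitin.

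Fold changes and adjusted p are printed for the 4 highest and 4 lowest called helicase genes of each comparison, with no overlap between groups and at least 5 CPM in the higher one, and for the paralog sets of DDX3X, DDX5, DDX6, DDX19 and DDX39. The members, role lists, marker lists and the lists of other helicases and partners were chosen with earlier results of these data known. The ERCC spike-ins that the labels mention were not used here.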

Additional observations from a re-analysis of the deposited data

Results flagged for a closer look

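The effect of a knockdown differed between 4 and 6 hpf for 26 pairs of helicase gene and knockdown, tested as an interaction in edgeR's quasi-likelihood fit with Benjamini-Hochberg adjustment. Each value is the log2 fold change against WT at 6 hpf minus that at 4 hpf. The genes called were 34.9% of the 43 in ybx1 MO and 25.6% in pabpc1a MO, against 26.4% and 22.8% of all genes. Fits of only the groups compared called 5 and 1 helicase genes, and 3477 and 1340 of all genes. No group has enough libraries for a test of a single outlying library.

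In ybx1 MO the effect moved upward for DDX5 (1.42), DDX6 (1.21), DDX27 (1.20), DHX33 (1.03), DDX21 (0.99), DDX55 (0.94), ddx61 (0.88), ddx3xa (0.44) and DDX39A_15111 (0.40). DDX21, which acts in rRNA transcription and processing, was at 122 and 146 CPM in ybx1 MO at 4 hpf and 505 in both libraries at 6 hpf, against 210.1 and 158, and then 293 and 404, in WT. The effect moved downward for DHX32_77461 (-1.46), ddx19a_44325 (-0.94), DDX11 (-0.92), DDX1 (-0.89), DHX29 (-0.83) and DHX40 (-0.72). With replicate 1 of WT at 4 hpf left out the DDX11 change was -0.56 and that of DDX39A_15111 0.21, and neither passed, while ddx61 was at 0.49 and passed. DDX21, DDX55 and DDX1 were not recomputed under the alternatives. Of the 14 tried for each of the other genes, 11 ended the call of DDX39A_15111, among them median-of-ratios scaling and the replicate block. The call of ddx3xa ended under 8, those of DDX11 and ddx19a_44325 under 6 each and that of DDX6 under 5. That of DHX40 ended under 4 and that of DHX33 under 3. Without replicate 2 of WT at 4 hpf DDX6 was at 0.71 and did not pass, and DDX11 was at -1.39.

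In pabpc1a MO the effect moved upward for DHX9 (1.42), DDX5 (1.23), ddx61 (1.08), DDX17 (0.92), DHX37 (0.60) and DDX39A_15111 (0.56). It moved downward for DHX32_77461 (-1.25), DDX1 (-0.94), ddx19a_44325 (-0.85), DDX51 (-0.85) and DDX20 (-0.75). With replicate 1 of WT at 4 hpf left out, DHX9 (0.59), DDX17 (0.42) and DDX39A_15111 (0.30) did not pass, while DDX5 (0.81) and ddx61 (0.63) did. Without replicate 2 of that group DDX20 was at -1.13 and passed. DHX37 and DDX1 were not recomputed under the alternatives. Of the 14 tried for each of the other genes, 8 ended the call of ddx19a_44325, and 4 each those of DDX20 and DHX9. The effect on 5 of 6 zygotic markers also changed upward in pabpc1a MO and on 3 of 6 in ybx1 MO, and their part in these values was not tested. Both knockdowns were compared with the same WT libraries, so their values are not independent.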

How the results depend on the processing

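None of the 200 named values changed direction in 2151 recomputations, and 233 of these no longer passed the test. Outside the paralog sets and the changes of effect, no overlap between groups was a condition for naming. Leaving out 1 library could then hardly reverse a value, so the lack of reversals is no support for those results. Counts of called helicase genes that moved by over 1.5 times were as follows, the cause was not tested, and which genes were called can differ. In fits of only the groups compared the WT count was 15 from 2 to 3 hpf, 0 from 3 to 4 hpf and 21 from 4 to 6 hpf. The same fits called 4562, 0 and 9339 of all genes. The helicase count was 18 and 1 in ybx1 MO at 3 and 4 hpf, 0 and 1 in pabpc1a MO at 4 and 6 hpf, and 17 between knockdowns at 4 hpf. It was 5 and 1 for the changes of the ybx1 MO and pabpc1a MO effects from 4 to 6 hpf. Over all genes the counts of these fits were, in the same order, 7251, 1009, 0, 779, 4700, 3477 and 1340. DESeq2 called 3 in WT from 2 to 3 hpf, 11 in ybx1 MO at 3 hpf and 4 for the change of its effect from 3 to 4 hpf. Over all genes DESeq2 called 1997, 4703 and 1407 there. For that change of effect no filter and the stricter filter each called 2 helicase genes. With no filter pabpc1a MO at 6 hpf gave 2. Without the WT pair of 4 hpf, chosen after seeing the data, the counts were 4 in WT from 2 to 3 hpf, 11 in ybx1 MO at 3 hpf, 7 in pabpc1a MO at 6 hpf and 14 between knockdowns at 4 hpf. The replicate block, where numbers do not pair the libraries, moved no count by over 1.5 times and gave 28 in WT from 0 to 2 hpf (27 without it) and 13 for the change of the ybx1 MO effect from 4 to 6 hpf (15 without it). Under the block the DHX33 call in pabpc1a MO at 6 hpf ended, at -0.65.

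Leaving out 1 library, the WT counts ranged from 23 to 25, 0 to 1, 8 to 24, 30 to 39 and 34 to 38 for the steps 0 to 2, 2 to 3, 3 to 4, 4 to 6 and 0 to 6 hpf. From 3 to 4 hpf it was 8 without replicate 1 of WT at 4 hpf and 9 without replicate 1 of 3 hpf. The ybx1 MO counts ranged from 3 to 5, 8 to 22 and 12 to 18 at 3, 4 and 6 hpf, and the pabpc1a MO counts from 10 to 28 and 1 to 7. Between knockdowns they ranged from 5 to 6 and 10 to 13, and for the changes of effect from 0 to 9, 8 to 23 and 6 to 23. With amanitin they ranged from 17 to 20, stayed at 41, and ranged from 39 to 40 for 2 to 4, 4 to 6 and 2 to 6 hpf, and in WT against amanitin from 35 to 37. Counts over all genes were not kept for the fits that left out 1 library or the WT pair of 4 hpf. Whether the helicase counts there moved with those of all genes was not tested. With 2 libraries a group the estimate of spread rests on all groups of a kit. Close copies can share reads, tail length and absolute RNA amounts were not measured, and 6 genes held under 100 counts in some library.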

Other observations

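Among RNA helicases outside the DDX and DHX families, 18 of 27 listed genes were tested in both kits. From 0 to 6 hpf in WT 9 rose and 4 fell, with a median log2 fold change of 1.04 (0.14 over all genes). Of all genes 38.6% rose and 34.4% fell. At the steps between, 7 rose and 5 fell from 0 to 2 hpf, and 4 and 0 from 2 to 3 hpf. From 3 to 4 hpf the counts were 5 and 3, and from 4 to 6 hpf 7 and 7. Over all genes the shares of these 4 steps were 17.6% and 16.8%, 3.28% and 1.3%, 17.1% and 10.5%, and 27.9% and 31.8%. setx, a helicase that resolves RNA-DNA hybrids, rose from a mean of 25.2 to 203 CPM by 2 hpf (3.01, adjusted p = 5.56e-09 by edgeR). SNRNP200, the Brr2 helicase that unwinds U4 from U6 snRNA, rose from 102 to 364 CPM from 4 to 6 hpf (1.84, adjusted p = 1.30e-08), and AQR, the intron-binding helicase, from 6.92 to 57.1 CPM over the course (3.04). EIF4A2, a cap-dependent translation initiation helicase, rose from 0.608 to 8.67 CPM from 3 to 4 hpf (3.83). Its mean at 4 hpf was 1.12 CPM in ybx1 MO and 0.868 in pabpc1a MO (-2.97 and -3.31). The poly(A) WT value at 4 hpf comes from the pair that stood apart, and this gene was not recomputed without single libraries. In rRNA-depleted libraries of 4 hpf it was at 17.0 CPM in WT against 2.17 with amanitin (2.97). In WT against amanitin 12 of the 18 were higher and 4 lower, against 36.2% and 32.7% of all genes. With amanitin 6 rose and 0 fell from 2 to 4 hpf, 9 and 5 from 4 to 6 hpf, and 9 and 4 from 2 to 6 hpf. Over all genes the shares were 15.6% and 16.7%, 33.1% and 34.6%, and 34.9% and 35.1%. In ybx1 MO the counts were 2 and 2 at 3 hpf, 4 and 3 at 4 hpf, and 6 and 2 at 6 hpf. The shares over all genes were 4.56% and 10.2%, 12.8% and 19.4%, and 11.9% and 15.6%. SKIC2, the cytoplasmic exosome helicase, stood at 3.93 CPM in ybx1 MO at 6 hpf against 13.7 in WT (-1.80, adjusted p = 1.88e-06 by edgeR). In pabpc1a MO the counts were 1 and 5 at 4 hpf and 0 and 2 at 6 hpf. Of all genes 13.5% and 20.8%, and 4.55% and 4.61%, were called there. The list was not tested against all genes.

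Of 50 listed partners of the helicases 39 were tested. From 0 to 2 hpf 10 rose and 23 fell (median -0.75, against 0.03 over all genes), and over the course to 6 hpf 11 rose and 23 fell (median -0.58). From 4 to 6 hpf in WT 14 rose and 13 fell. Of all genes 17.6% rose and 16.8% fell from 0 to 2 hpf, 38.6% and 34.4% over the course, and 27.9% and 31.8% from 4 to 6 hpf. Lowest in adjusted p from 0 to 6 hpf were DROSHA and patl2. DROSHA, the microRNA-processing nuclease, fell from 343 to 12.7 CPM (-4.76, adjusted p = 4.24e-12 by edgeR). The oocyte relative of the decapping factor Pat1, patl2, fell from 80.3 to 4.74 CPM (-4.08). LSM14B, a partner of DDX6 in mRNA storage, fell from 154 to 14.3 CPM between 4 and 6 hpf (-3.43). DROSHA fell with amanitin too, from 76.3 to 8.27 CPM between 4 and 6 hpf (-3.20). At that step 25 of the 39 rose and 13 fell, against 33.1% and 34.6% of all genes. In WT against amanitin 21 were higher and 8 lower, against 36.2% and 32.7%. In ybx1 MO 10, 11 and 11 were higher and 5, 5 and 8 lower at 3, 4 and 6 hpf. Over all genes 4.56%, 12.8% and 11.9% were higher and 10.2%, 19.4% and 15.6% lower. In pabpc1a MO 11 and 8 were higher and 6 and 4 lower at 4 and 6 hpf. Over all genes 13.5% and 4.55% were higher and 20.8% and 4.61% lower.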
